A study of Mus musculus with 20 samples.

Results

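The genes described here encode the respiratory chain, the set of protein complexes in the inner mitochondrial membrane that passes electrons to oxygen and makes ATP. They were picked by symbol: names beginning with Nduf, Uqcr, Atp5, mt-Nd, mt-Co, mt-Atp or mt-Cyt, and Cox names of the subunit series, without pseudogenes, without Cox8b and Cox7a1, and with a mean of at least 1 FPKM (a fragment count scaled by transcript length and by the size of the library) over 20 mice. Of 43422 genes in the files, 97 met this rule, 84 of them encoded in the nucleus and 13 on the mitochondrial chromosome. Grouped by symbol, the nuclear members comprised 35 genes of complex I, 8 of complex III, 14 of complex IV and 17 of complex V. The other nuclear members were 8 assembly factors of complex I and the pair Ndufa4 and Ndufa4l2. A symbol alone does not show that a gene encodes a subunit of its complex. Of the mitochondrial members, 7 belong to complex I, 1 to complex III, 3 to complex IV and 2 to complex V. Of 113 symbols with a matching name, 11 were not protein coding, 3 fell below the mean (Ndufb2 nearest to it at 0.620 FPKM) and 2 were left out by name. The members just above it were Ndufs3 at 2.70, Atp5s at 2.92 and Cox6a2 at 3.01 FPKM.

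Abdominal aortas of C57BL/6 mice (C57Bl/6NCrl in the study's methods) were profiled by poly(A)-selected, unstranded RNA-seq in 4 groups of 5. WT mice and mice lacking lysyl hydroxylase 1 throughout the body (Plod1-/-) were infused from subcutaneous osmotic pumps for 14 days, either with saline or with angiotensin II (Ang II) at 1000 ng/kg per minute, a peptide hormone that raises blood pressure. The labels gave an age of 6 months for every mouse, and the study's methods gave a younger age at pump implantation and described male mice only. Whole vessel segments were used, so a lower share of a cell type and less RNA per cell cannot be told apart.

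Complex I takes electrons from NADH, complex III passes them to cytochrome c, complex IV hands them to oxygen, and complex V, the ATP synthase, uses the resulting proton gradient. All of these complexes contain subunits from both genomes, whereas complex II is wholly nuclear. Brown fat and striated muscle are rich in respiratory chains, and in brown fat Ucp1 lets protons bypass the ATP synthase.

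Relative depth, estimated from ratios of the lowest FPKM values between libraries, ranged from 0.906 to 1.09. Large ratios were set aside in this estimate, so it could not show large differences in depth. The number of genes at 1 FPKM or more ranged from 11657 to 13192. Xist RNA, transcribed from the inactive X chromosome of female cells, was at 15.1 FPKM in Plod1-/- saline mouse 5 and at 7.93 FPKM in Plod1-/- Ang II mouse 1, and at most 0.0328 FPKM in the other 18 mice. These 2 libraries did not match the described sex. Counts of calls in several comparisons are also given without them, whereas the marker sums include them.

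Some members overlap other genes on the genome, which bears on what their values count. On the mitochondrial chromosome (GRCm38), mt-Atp8 spans chrM:7766-7969 and mt-Atp6 spans chrM:7927-8607, and the 2 reading frames share 43 bases. The 204-base mt-Atp8 transcript is shown because it had the lowest level of the mitochondrial members, with the bases shared with mt-Atp6 in capitals (GENCODE M21, GRCm38, plus strand).
mt-Atp8: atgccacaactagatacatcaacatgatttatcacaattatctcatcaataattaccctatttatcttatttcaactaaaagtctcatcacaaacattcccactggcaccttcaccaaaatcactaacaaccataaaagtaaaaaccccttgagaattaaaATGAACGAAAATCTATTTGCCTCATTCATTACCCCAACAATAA
Likewise, mt-Nd4l (chrM:9877-10173) and mt-Nd4 (chrM:10167-11544) share 7 bases, and mt-Atp6 and mt-Co3 share 1. Without strand, fragments in such stretches cannot be assigned to 1 gene, and 29 members also had an exon opposite an exon of another gene, among them Cox4i1 (opposite Emc8), Ndufa4l2 (Shmt2), Ndufs3 (Kbtbd4), Cox6a2 (Itgad) and Atp5j (Gabpa). The 29 include mt-Nd6 (chrM:13552-14070, minus strand) and mt-Nd5 (chrM:11742-13565, plus strand), which overlap each other. The values of mt-Nd6 therefore cannot be assigned to its strand alone.

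RefSeq promoter windows of 300 bases (250 before and 50 after the start, GRCm38.p6) were found for 69 of the 84 nuclear members. They were searched on both strands for 4 short motifs of factors known to regulate respiratory genes, NRF1 (CGCATGCG), GABPA (CCGGAAG), YY1 (AAGATGGC) and ERR (TCAAGGTCA), which do not overlap each other in the windows printed. The NRF1 letters stood in 14.9% of the 74 windows of members against 1.87% of all 32851 windows, the GABPA letters in 21.6% against 8.86%, the YY1 letters in 14.9% against 2.75%, and the ERR letters in 1.35% against 0.423%. A further search for CCAAT gave 40.5% against 37.4%. Of the 69 members, 32 had at least 1 of the 4 motifs. Printed here are the windows of Atp5j, which held 3 motifs, of Cox6a1, the nuclear member with the highest level, and of Uqcrfs1 and Uqcrc1, the complex III members with the largest and smallest difference between Ang II and saline in WT mice; capitals mark the motifs, and Uqcrfs1 held none of the 4. A second RefSeq window of Atp5j (chr16:84835576-84835875) held none of them either.
Atp5j (chr16:84834927-84835226, minus strand): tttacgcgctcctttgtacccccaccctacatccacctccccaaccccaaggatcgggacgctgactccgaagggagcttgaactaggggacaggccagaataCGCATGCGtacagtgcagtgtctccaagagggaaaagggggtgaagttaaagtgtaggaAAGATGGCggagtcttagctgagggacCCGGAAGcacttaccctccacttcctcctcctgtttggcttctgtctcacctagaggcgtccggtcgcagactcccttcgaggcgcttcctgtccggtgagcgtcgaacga
Cox6a1 (chr5:115348909-115349208, minus strand): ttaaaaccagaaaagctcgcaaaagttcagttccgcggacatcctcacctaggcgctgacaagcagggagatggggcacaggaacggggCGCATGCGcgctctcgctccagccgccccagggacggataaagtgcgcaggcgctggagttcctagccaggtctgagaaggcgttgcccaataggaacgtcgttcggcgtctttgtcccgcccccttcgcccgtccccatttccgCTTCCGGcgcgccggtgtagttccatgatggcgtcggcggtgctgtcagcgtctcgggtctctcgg
Uqcrfs1 (chr13:30545267-30545566, minus strand): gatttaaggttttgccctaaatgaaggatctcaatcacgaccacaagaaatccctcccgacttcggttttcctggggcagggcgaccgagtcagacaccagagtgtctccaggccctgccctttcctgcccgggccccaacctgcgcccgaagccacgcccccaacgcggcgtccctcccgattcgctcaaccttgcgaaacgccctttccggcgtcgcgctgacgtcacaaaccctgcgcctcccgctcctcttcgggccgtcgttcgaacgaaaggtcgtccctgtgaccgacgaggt
Uqcrc1 (chr9:108936398-108936697, plus strand): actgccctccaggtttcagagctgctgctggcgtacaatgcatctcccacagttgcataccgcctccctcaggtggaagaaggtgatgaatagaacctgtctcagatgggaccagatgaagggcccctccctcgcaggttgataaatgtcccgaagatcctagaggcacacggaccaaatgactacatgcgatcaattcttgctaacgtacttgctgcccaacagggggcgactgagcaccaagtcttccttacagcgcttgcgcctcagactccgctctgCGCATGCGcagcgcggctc

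The summed level of the nuclear members separated the WT groups and not the Plod1-/- groups. It was narrow in WT saline mice, at 5786, 5807, 5905, 5721 and 5991 FPKM, and reached 12768, 20854, 14711, 7141 and 20445 FPKM in WT Ang II mice. It was 6631, 9775, 7192, 5300.0 and 5296 FPKM in Plod1-/- saline mice and 6468, 8975, 6738, 6284 and 6623 FPKM in Plod1-/- Ang II mice. Every WT Ang II mouse lay above every WT saline mouse, with mouse 4 far below the other 4, and the Plod1-/- groups overlapped each other and reached into the range of the WT Ang II mice.
The 13 mitochondrial members summed to 30154, 28354, 47529, 34543 and 49114 FPKM in WT saline mice and to 78252, 108609, 110000.0, 49302 and 95672 FPKM in WT Ang II mice. In Plod1-/- mice they summed to 46612, 49699, 35055, 42364 and 58540.2 FPKM with saline and to 86734, 41674, 33528, 43614 and 36892 FPKM with Ang II. The WT groups did not overlap here either, although mouse 4 of the Ang II group was barely above the highest saline mouse, and 1 Plod1-/- Ang II mouse, one of those with Xist RNA, stood far above the other 4.

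**Figure D1:**
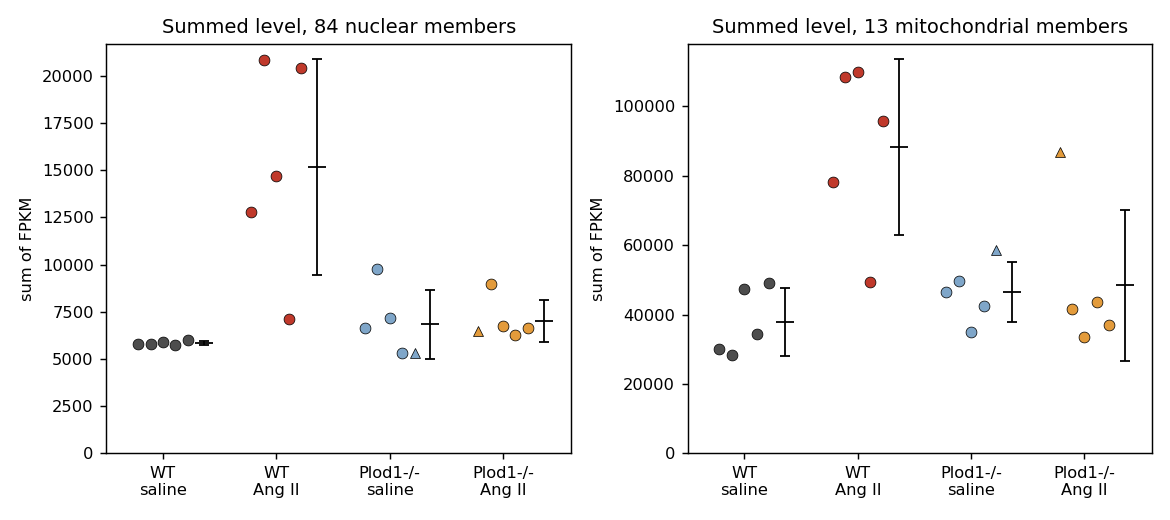
Sum of FPKM over the nuclear members (left) and the mitochondrial members (right) in each mouse, by group. Points are mice, triangles are the 2 libraries with Xist RNA, and bars give the mean and SD of 5 mice; the WT Ang II mice lie between 7141 and 20854 FPKM for nuclear members, above all WT saline mice.

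In WT aorta, most nuclear respiratory genes of complexes I, III, IV and V were higher with Ang II than with saline. At an adjusted p below 0.05 (limma over all genes tested, on log2 of FPKM plus 1), 72 of 84 nuclear members were higher and 1 was lower, against 16.5% of all genes tested higher and 21.5% lower. Their median log2 fold change was 1.10, against −0.14 over all genes tested, and 51 passed both the p threshold and a log2 fold change of 1, against 6.38% of all genes. By complex, 32 of 35 members of complex I rose (median 1.17), 7 of 8 of complex III (1.49), 11 of 14 of complex IV (1.22) and 14 of 17 of complex V (0.83). The assembly factors, which help build complex I and are not part of it, had a median of 0.47, and 7 of 8 rose. The values of 54 of 84 nuclear members did not overlap between the WT groups, against 17.3% of all genes tested. Among the 57 nuclear members with no exon opposite another gene, 51 rose and 1 fell.

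The largest difference in complex III was that of Uqcrfs1, the Rieske iron-sulfur protein. Its level was 43.0, 42.0, 64.2, 42.9 and 69.8 FPKM in WT saline mice and 228, 366, 278, 90.8 and 315 FPKM in WT Ang II mice, without overlap. The log2 fold change was 2.16 ± 0.33 (SE, adjusted p = 0.0020, limma). At the other end, the core subunit gene Uqcrc1 was at 11.6, 20.1, 12.2, 11 and 14.1 FPKM with saline and at 15.3, 24.3, 20.9, 13.5 and 16.6 FPKM with Ang II. These ranges overlapped, and its difference of 0.37 ± 0.19 on the log2 scale did not pass the test (adjusted p = 0.133).

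In complex I, Ndufa10, an accessory subunit, was at 27.2, 24.5, 32.5, 22.1 and 34.6 FPKM in WT saline mice. In WT Ang II mice it was at 85.9, 178, 135, 48.8 and 169 FPKM, all above the saline mice, and it rose by 1.96 ± 0.32 on the log2 scale (adjusted p = 0.0021, limma). Ndufv1, the NADH-binding flavoprotein, had 52.2 ± 6.65 FPKM with saline and 201 ± 83.5 FPKM with Ang II (SD, n = 5), and rose by 1.8 ± 0.30 on the log2 scale. Ndufs3, a core subunit, was listed at low values of 1.28, 2.94, 2.89, 1.81 and 3.31 FPKM with saline and 2.25, 2.36, 1.36, 3.39 and 1.04 FPKM with Ang II, which overlapped (log2 fold change −0.18 ± 0.23, limma adjusted p = 0.557). Ndufb9 had the highest mean level of complex I over the 20 mice, 228 FPKM, and Ndufs3 the lowest.

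In complex IV, the genes of nuclear-encoded structural subunits Cox5a, Cox6b1, Cox5b and Cox6a1 rose with log2 fold changes of 1.79, 1.69, 1.54 and 1.47. Cox5a was at 11.1, 11.1, 14.1, 12.2 and 15.3 FPKM in WT saline mice and at 37.3, 74.5, 52.3, 18.4 and 77.0 FPKM in WT Ang II mice, with no overlap (adjusted p = 0.0033, limma). Cox6a1 had the highest mean of all nuclear members, 1177 FPKM. It was at 714, 727, 764, 684 and 845 FPKM with saline and at 1788, 3196, 2139.9, 933 and 3288 FPKM with Ang II.

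Paired isoforms of complex IV differed in their values. Cox4i1, the common form of subunit 4, had 118 ± 5.01 FPKM with saline and 318 ± 130 FPKM with Ang II (SD, n = 5) and rose by 1.30 ± 0.28 on the log2 scale (limma adjusted p = 0.0068). Cox4i2, the form known for lung and for low oxygen, was at 5.57, 9.19, 6.41, 8.73 and 8.61 FPKM with saline and at 7.48, 8.01, 4.58, 4.20 and 7.81 FPKM with Ang II, which overlapped (−0.25 ± 0.20, adjusted p = 0.315). Cox6a2, the heart and skeletal muscle form of subunit 6a, varied from mouse to mouse: 0.213, 0.544, 6.94, 0.109 and 0.865 FPKM with saline, and 0.271, 7.93, 3.39, 1.38 and 12.5 FPKM with Ang II (1.14 ± 0.68, adjusted p = 0.190). The heart muscle marker Myl7 was at 38.3 FPKM in WT saline mouse 3, the saline mouse with the most Cox6a2, and the 6 heart muscle markers listed summed to 11.3 to 110 FPKM with saline and 8.44 to 20.9 FPKM with Ang II. Their part in the Cox6a2 values was not tested. Cox6b2, a form known from testis, differed by 0.17 (adjusted p = 0.228), and Cox7a2 and Cox8a rose by 1.09 and 1.41.
Ndufa4, named for complex I and placed in complex IV by structure, rose from 89.8 ± 3.42 to 275 ± 116 FPKM (SD, n = 5; 1.48 ± 0.28). Its relative Ndufa4l2, a gene induced by low oxygen, was at 21.8, 13.3, 9.53, 13.3 and 8.48 FPKM with saline and at 22.6, 17.4, 11.6, 14.2 and 23.5 FPKM with Ang II, which overlapped (0.43 ± 0.25, limma adjusted p = 0.188).

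The ATP synthase was the most mixed complex. Atp5b, the catalytic beta subunit, was at 181, 176, 206, 167 and 229 FPKM in WT saline mice and at 622, 925, 780.2, 305 and 833 FPKM in WT Ang II mice, with no overlap (1.76 ± 0.27, limma adjusted p = 0.0020). Atp5a1, the alpha subunit, rose by 1.42. Of the 3 genes that encode the same c-ring subunit, Atp5g1 fell by 0.58, Atp5g2 rose by 0.43, and Atp5g3 differed by 0.34 (adjusted p = 0.084). Atp5g1 was at 12.1, 14.7, 11.6, 14.4 and 8.75 FPKM with saline and at 8.40, 7.21, 6.64, 9.15 and 7.76 FPKM with Ang II, so 4 of the 5 Ang II mice were below every saline mouse (SE 0.14, adjusted p = 0.0115). It was the only nuclear member that fell. Atp5j, the coupling factor gene whose promoter is printed above, was at 35.4, 35.8, 32.4, 38.2 and 30.2 FPKM with saline and at 34.7, 36.7, 30.3, 32.3 and 38.5 FPKM with Ang II (0.01, adjusted p = 0.973).

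**Figure D2:**
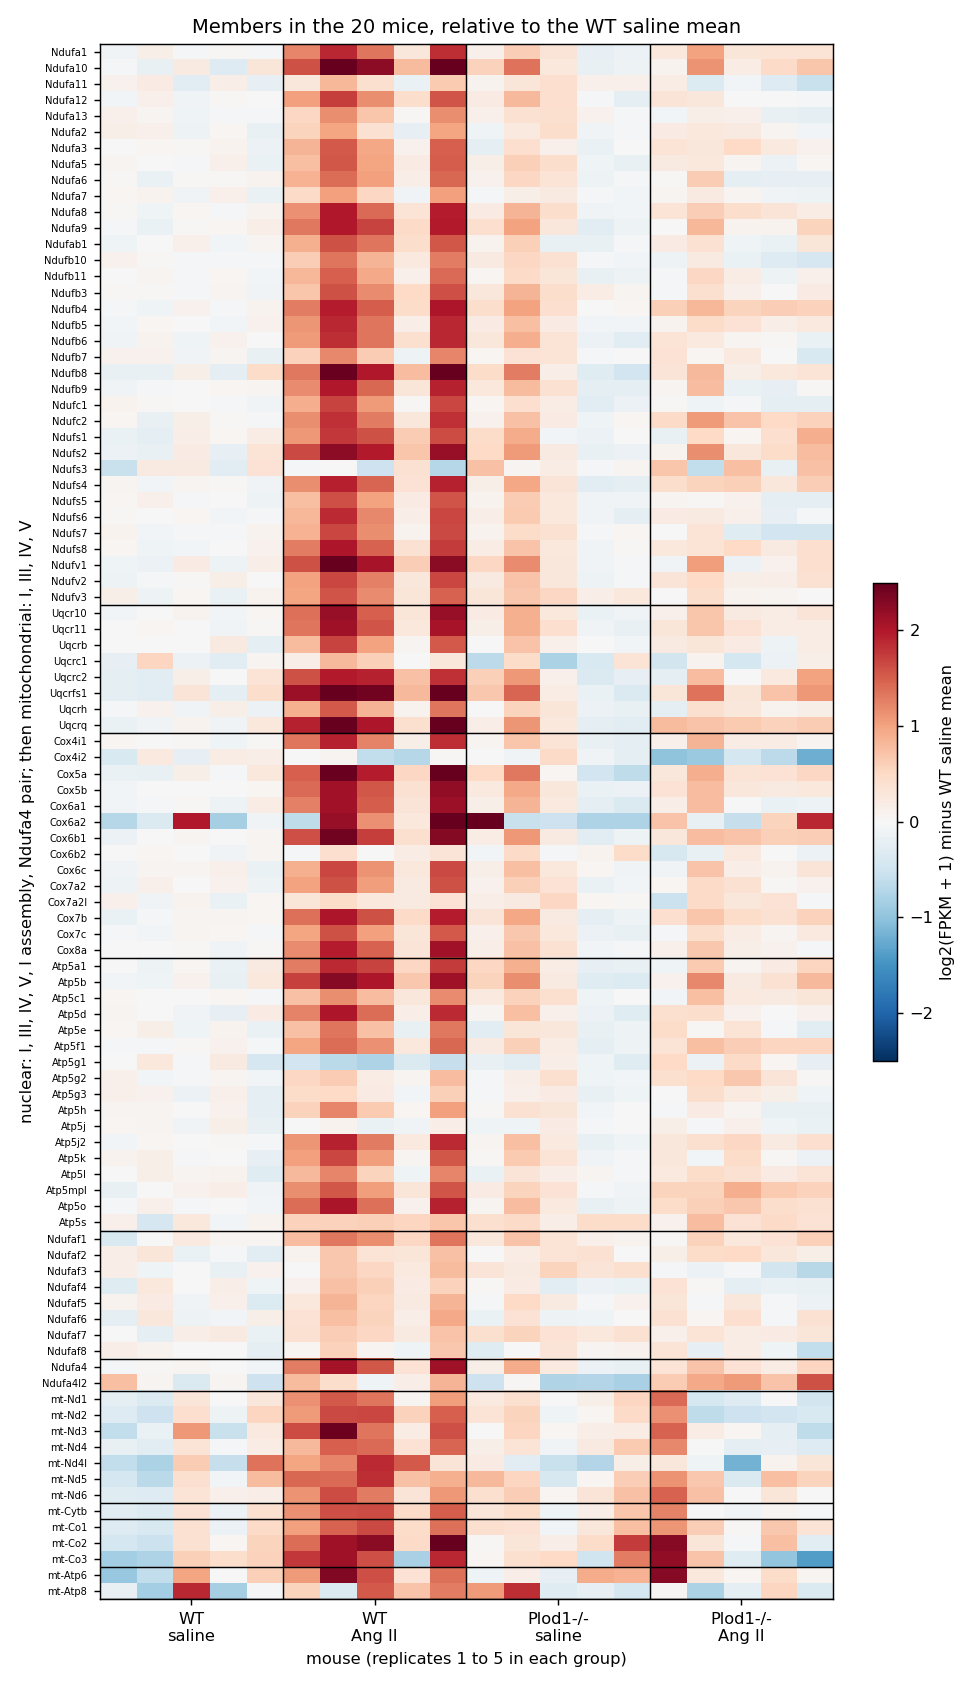
Each row is a member and each column a mouse; colour gives log2(FPKM + 1) minus the mean of the WT saline mice, and colours stop at 2.5 in either direction. Black lines separate groups and complexes, with the nuclear members above and the mitochondrial members in the bottom 13 rows; WT Ang II mice 2 and 5 are reddest among nuclear members and mouse 4 palest.

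Of the 13 mitochondrial members, 11 rose in WT mice with Ang II (median log2 fold change 1.26, all 11 above 1). Their levels spread widely: mean values over the 20 mice were 17775 FPKM for mt-Co1, 14136 for mt-Cytb, 7872 for mt-Nd1, 6218 for mt-Nd2, 4752 for mt-Nd4, 2264 for mt-Nd6 and 1764 for mt-Nd5. The other 6 were far lower, at 237 FPKM for mt-Co2, 164 for mt-Co3, 103 for mt-Atp6, 14.7 for mt-Nd3, 8.73 for mt-Nd4l and 4.37 for mt-Atp8. These 6 have the shortest annotated genes of the 13 apart from mt-Nd6, from 204 to 784 bases, and the part of transcript length in their low values was not tested.

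mt-Co1, the catalytic subunit of complex IV, was at 9143, 8732, 14818, 10275 and 15947 FPKM in WT saline mice and at 23341, 31906, 35661, 15704 and 29665 FPKM in WT Ang II mice. Mouse 4 overlapped the saline mice, and the rise was 1.20 ± 0.30 on the log2 scale (limma adjusted p = 0.0116). mt-Cytb, cytochrome b and the only mitochondrial subunit of complex III, was at 7690.1, 7318, 12039.9, 8468 and 12268 FPKM with saline and at 20602, 28586, 28678, 13008 and 26634 FPKM with Ang II. These groups did not overlap (1.28 ± 0.29, adjusted p = 0.0081). Of the complex I genes, mt-Nd1, mt-Nd2, mt-Nd3, mt-Nd4, mt-Nd4l, mt-Nd5 and mt-Nd6 rose by 1.03, 1.29, 1.44, 1.11, 1.18, 1.26 and 1.09. mt-Co2 rose by 1.79 and mt-Atp6 by 1.35. mt-Co3 at 1.31 ± 0.54 (adjusted p = 0.0712) and mt-Atp8 at 0.74 ± 0.51 (adjusted p = 0.250) did not pass the test. mt-Atp8 reached 12.8 FPKM in WT saline mouse 3 and was between 1.09 and 2.69 FPKM in the other 4 saline mice. Without WT Ang II mouse 2, 7 mitochondrial members rose, and with no filter on low values 4 did. With quantile normalization mt-Co1, mt-Cytb and mt-Nd1 differed by 0.20, 0.38 and 0.53 and did not pass the test.

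Markers of other cell types moved with these genes. Of 8 brown adipocyte markers tested, 6 rose and 1 fell in WT mice with Ang II. Those that did not rise included Prdm16, at 7.72 to 12.7 FPKM with saline and 3.71 to 9.73 FPKM with Ang II. Dio2, at 4.86 to 11.6 and 2.78 to 10.6 FPKM, did not rise either. The 10 on the list summed to 41.5 to 449 FPKM with saline and 623 to 4881 FPKM with Ang II. None was at 0 in every mouse of a group. The list includes Cox8b and Cox7a1, complex IV genes left out of the members by name, so it is not separate from the respiratory chain. Cox8b alone was at 2.58 to 122 FPKM with saline and 169 to 1378 FPKM with Ang II. Cpt1b and Ppargc1a on the list are also genes of energy metabolism. Ucp1 was at 8.77, 4.68, 79.3, 0.955 and 159.9 FPKM with saline and at 1356, 1879, 1317, 208 and 1201 FPKM with Ang II, so mouse 4 was lowest for Ucp1 as well as for both respiratory sums. Among the other Ang II mice the orders differed, as mouse 1 had more Ucp1 than mouse 5 and smaller sums. All 7 white adipocyte markers tested rose. Their list summed to 137 to 667 FPKM with saline and 1310.3 to 4067 FPKM with Ang II. Of 5 skeletal muscle markers tested 3 rose, and the 12 on the list summed to 191 to 438 FPKM with saline and 77.7 to 666 FPKM with Ang II. Nearly all of the sum with saline was 1 gene, Tcap, at 184 to 431 FPKM with saline and 73.6 to 358 FPKM with Ang II. The sum therefore says little about the other markers on the list. Skeletal muscle actin, Acta1, was at 0.336, 141, 77.2, 8.30 and 111 FPKM in the WT Ang II mice and at most 2.18 FPKM in WT saline mice, and mice 2, 3 and 5 also had the highest nuclear sums. Of 8 smooth muscle markers 6 fell, and their sum was 14130.5 to 20450.5 FPKM with saline and 5521 to 17086 FPKM with Ang II. Mouse 4 was again apart among the WT Ang II mice, with the smooth muscle marker Acta2 at 14301 FPKM against 4582 to 8599 FPKM in the rest. Acta2 was at 11783 to 17399 FPKM in WT saline mice. All 8 immediate early genes tested fell, from a summed 432 to 2203 FPKM with saline to 99.4 to 154 FPKM with Ang II. The part of these in the rise of the respiratory genes was not tested.

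Other genes of mitochondrial metabolism, from lists drawn up beside the members, rose in WT mice too. All 4 genes of complex II rose (median 1.89), led by Sdha, its flavoprotein subunit, at 2.03 ± 0.29. All 13 genes of the tricarboxylic acid cycle rose (1.71), as did 14 of 15 of fatty acid beta-oxidation (2.34). Cycs, the electron carrier cytochrome c, and Cyc1, the cytochrome c1 subunit of complex III, rose by 2.01 each. Cyc1 was not among the members because its symbol does not match the rule. Of 77 mitochondrial ribosomal protein genes, 52 rose and 1 fell, with a smaller median of 0.47, and of 20 genes of mitochondrial transcription and RNA handling 9 rose and 1 fell (0.30). Assembly genes of complex IV had 13 of 16 higher (0.65), those of complex III 4 of 6 (0.88) and those of complex V, with its inhibitor, 3 of 4 (0.66). Among 8 regulators tested, Esrra, Ppargc1b and Perm1 rose, by 1.84, 1.64 and 1.24, while Nrf1, Gabpb1 and Pprc1 fell by 0.33, 0.38 and 0.80.

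**Figure D3:**
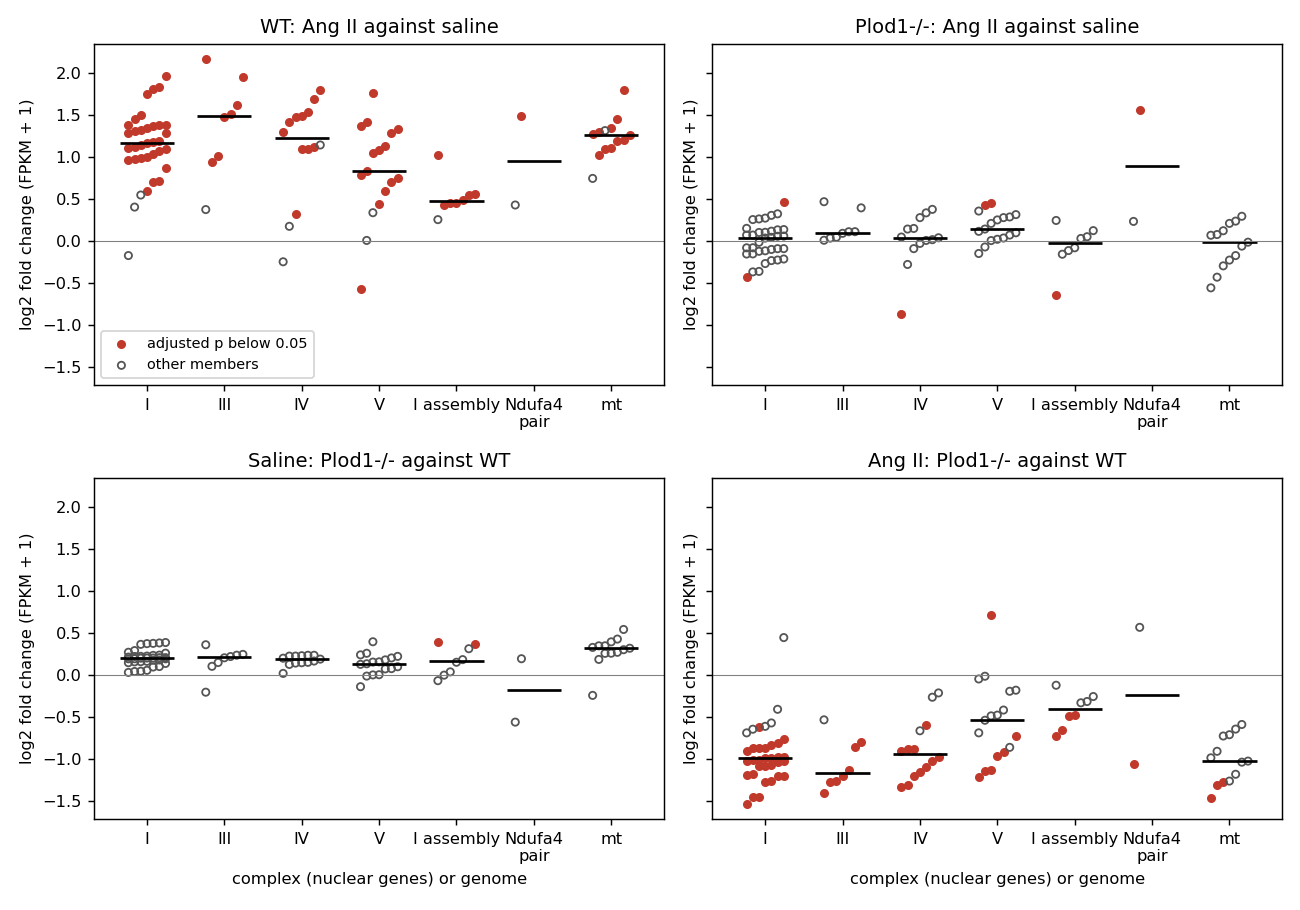
Log2 fold change of each member on the log2(FPKM + 1) scale, by complex for the nuclear genes and together for the mitochondrial genes (mt), in 4 comparisons. Filled points passed limma's adjusted p of 0.05 and lines mark medians; in WT mice the medians of complexes I, III and IV lie at 1.17, 1.49 and 1.22, and in Plod1-/- mice with Ang II they lie near 0.

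In Plod1-/- mice, Ang II left most of the respiratory genes near their saline values. Of 83 nuclear members tested, 4 were higher and 3 lower (limma), against 23.8% and 20.1% of all genes tested, and the median log2 fold change was 0.05, the same as over all genes tested. None of the 13 mitochondrial members passed the test (limma, median −0.02), and none reached an unadjusted p of 0.05, against 51.8% of all genes tested. The split of the nuclear calls depended on scaling. With quantile normalization 2 nuclear members were higher and 9 lower. With the mitochondrial genes left out and the remaining sums made equal, 2 were higher and 7 lower. Without Plod1-/- saline mouse 2, whose nuclear sum was the highest of its group, 13 nuclear members were higher and 2 lower. Without both libraries with Xist RNA, 1 was higher and 3 lower. The total fell to between 3 and 4 without any one of Plod1-/- saline mice 4 and 5 and Plod1-/- Ang II mice 3 and 4. Without Plod1-/- Ang II mouse 1, 2 mitochondrial members were lower.

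The largest difference was in Ndufa4l2. It was at 8.52, 12.9, 7.03, 7.14 and 6.71 FPKM with saline and at 20.2, 25.3, 27.5, 21.2 and 40.3 FPKM with Ang II, with no overlap (1.55 ± 0.21, limma adjusted p = 0.000311). Its exons lie opposite those of Shmt2, so unstranded fragments of the 2 genes cannot be told apart where they overlap. Cox4i2 went the other way, from 7.66, 7.09, 10.9, 7.07 and 6.34 FPKM to 3.27, 3.54, 5.36, 4.42 and 2.66 FPKM, also with no overlap (−0.87 ± 0.17, limma adjusted p = 0.0024). The assembly factor gene Ndufaf3 fell from 16.4, 15.2, 19.3, 16.3 and 17.3 FPKM to 12.3, 11.6, 12.5, 9.12 and 7.60 FPKM (−0.64 ± 0.14, adjusted p = 0.0035). The other calls were smaller, with Ndufc2, Atp5mpl and Atp5f1 higher by 0.47, 0.45 and 0.43 and Ndufa11 lower at −0.43. Uqcrq (0.47) and Cox6b1 (0.37) had the largest positive values of complexes III and IV and did not pass the test, and Uqcrb (0.01) and Atp5h (−0.15) were lowest in complexes III and V.

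The genes that stood out in WT mice were in the same range under both infusions in Plod1-/- mice. Uqcrfs1 was at 82.0, 142, 58.6, 45.7 and 39.6 FPKM with saline and at 63.5, 132, 63.7, 83.8 and 109 FPKM with Ang II (0.39 ± 0.34, limma adjusted p = 0.382). Atp5b was at 279.8, 426, 222, 154 and 151 FPKM and at 205, 439, 224, 247 and 332 FPKM (0.28 ± 0.31). Cox6a2 was below the level filter here, with values of 13.5, 0.347, 0.392, 0.155 and 0.157 FPKM with saline and 2.26, 0.740, 0.332, 1.90 and 6.31 FPKM with Ang II (difference of log2 means 0.43, two-sided exact permutation p = 0.587, where the smallest possible is 0.00794). Plod1-/- saline mouse 1, the highest for Cox6a2, had Myl7 at 65.4 FPKM and Myh6, the heart myosin gene, at 44.7 FPKM, and the heart muscle markers summed to 11.9 to 245 FPKM with saline and 5.18 to 78.9 FPKM with Ang II.
Brown adipocyte markers summed to 39.8 to 1416 FPKM with saline and 169 to 618 FPKM with Ang II, and Ucp1 to 3.18 to 621 FPKM and 36.6 to 165 FPKM. Of the 8 brown adipocyte markers tested, 1 rose and 1 fell. Of 8 white adipocyte markers 5 rose, and all 8 macrophage markers rose, from a sum of 57.8 to 211 FPKM to 642 to 3739 FPKM, as did all 5 red cell genes tested. Of all 8 smooth muscle markers, which fell, the sum went from 15064 to 20749 FPKM to 2307 to 16788 FPKM. Plod1-/- Ang II mouse 1, a library with Xist RNA, stood apart in both lists. Its smooth muscle marker Acta2 was at 14456 FPKM, against 1901 to 5460 FPKM in the rest of its group. Its macrophage marker Cd68 was at 55.2 FPKM, against 130 to 362 FPKM. The part of all these markers in the values of the respiratory genes was not tested.

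With saline alone, Plod1-/- and WT mice differed little. Of 83 nuclear members tested, 2 were higher in Plod1-/- mice, against 3.33% of all genes higher and 3.23% lower, both of them assembly factor genes. Ndufaf3 was at 14.6, 11.9, 13, 11.2 and 13.9 FPKM in WT and 16.4, 15.2, 19.3, 16.3 and 17.3 FPKM in Plod1-/- mice, with no overlap (0.37 ± 0.09, limma adjusted p = 0.0388). Ndufaf7 was at 9.66 FPKM on average in WT and 12.9 FPKM in Plod1-/- mice (0.39 ± 0.10, adjusted p = 0.0462). Neither call held without Plod1-/- saline mouse 5, the library with Xist RNA; leaving out any other Plod1-/- saline mouse or WT saline mouse 2 also left none, and leaving out WT saline mouse 1, 3, 4 or 5 left 1. The values of 77 of the 83 lay above 0, with a median of 0.19 against −0.01 over all genes tested. The highest of complexes V, I, III and IV were Atp5s (0.40), Ndufv3 (0.39), Uqcrfs1 (0.36) and Cox8a (0.24), and the lowest of complexes III, V, IV and I were Uqcrc1 (−0.20), Atp5g1 (−0.14), Cox4i2 (0.02) and Ndufa3 (0.03). None of these passed the test, nor did Ndufa4l2 at −0.56 (adjusted p = 0.159). Plod1-/- saline mouse 2, at 621 FPKM of Ucp1 the highest of its group, had the highest nuclear sum. None of the 13 mitochondrial members passed (limma, median 0.32), and 1 reached an unadjusted p of 0.05, against 27.1% of all genes tested. Cox6a2 was not tested by limma (exact permutation, two-sided, p = 0.921). All 7 white adipocyte markers tested had values above 0 (median 1.01), none of which passed the test (limma; 1 at an unadjusted p of 0.05). Of 8 brown adipocyte markers tested, 7 had values above 0 (median 0.84) and did not pass, and the other was lower. The part of these markers in the respiratory values was not tested.

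Under Ang II, the respiratory genes were lower in Plod1-/- than in WT mice. These comparisons share the WT Ang II and Plod1-/- Ang II mice with those above. Of 84 nuclear members, 58 were lower and 1 was higher (limma), against 10.4% of all genes tested lower and 20.8% higher. The median log2 difference was −0.88, against 0.12 over all genes tested. In complex I 29 of 35 were lower (median −0.99), in complex III 7 of 8 (−1.16), in complex IV 11 of 14 (−0.94) and in complex V 6 of 17 with 1 higher (−0.54), and 4 of 8 assembly factors were lower (−0.40). The count of 59 calls fell to 30, 33, 31 and 28 without WT Ang II mouse 2, 3 or 5 or Plod1-/- Ang II mouse 4, respectively. The values of 9 of 84 nuclear members did not overlap, against 15.1% of all genes tested.

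Ndufv1 had the largest difference of the members. It was at 159, 294, 220.1, 80.4 and 251 FPKM in WT Ang II mice and at 48.9, 108, 46.5, 56.2 and 70.1 FPKM in Plod1-/- Ang II mice. WT mouse 4 and Plod1-/- mouse 2 overlapped, and the log2 difference was −1.53 ± 0.35 (limma adjusted p = 0.0101). Uqcrfs1 (−1.41 ± 0.37), Cox6a1 (−1.34 ± 0.36) and Atp5b (−1.22 ± 0.33) had the largest negative differences of complexes III, IV and V. Cox6a1 was at 833, 1278, 746, 668 and 681 FPKM in the Plod1-/- Ang II mice. Nearest to 0 in complexes III and IV were Uqcrc1 (−0.53) and Cox7a2l (−0.21), which did not pass the test, and Ndufs3 was higher by 0.45, also without passing.
Atp5g1 was the 1 nuclear member that was higher. It was at 17.6, 10.8, 17.4, 12.7 and 10.4 FPKM in Plod1-/- Ang II mice, all above the WT Ang II mice (0.72 ± 0.17, limma adjusted p = 0.0107). Ndufa4l2 differed by 0.57 ± 0.23 (adjusted p = 0.0829).

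**Figure D4:**
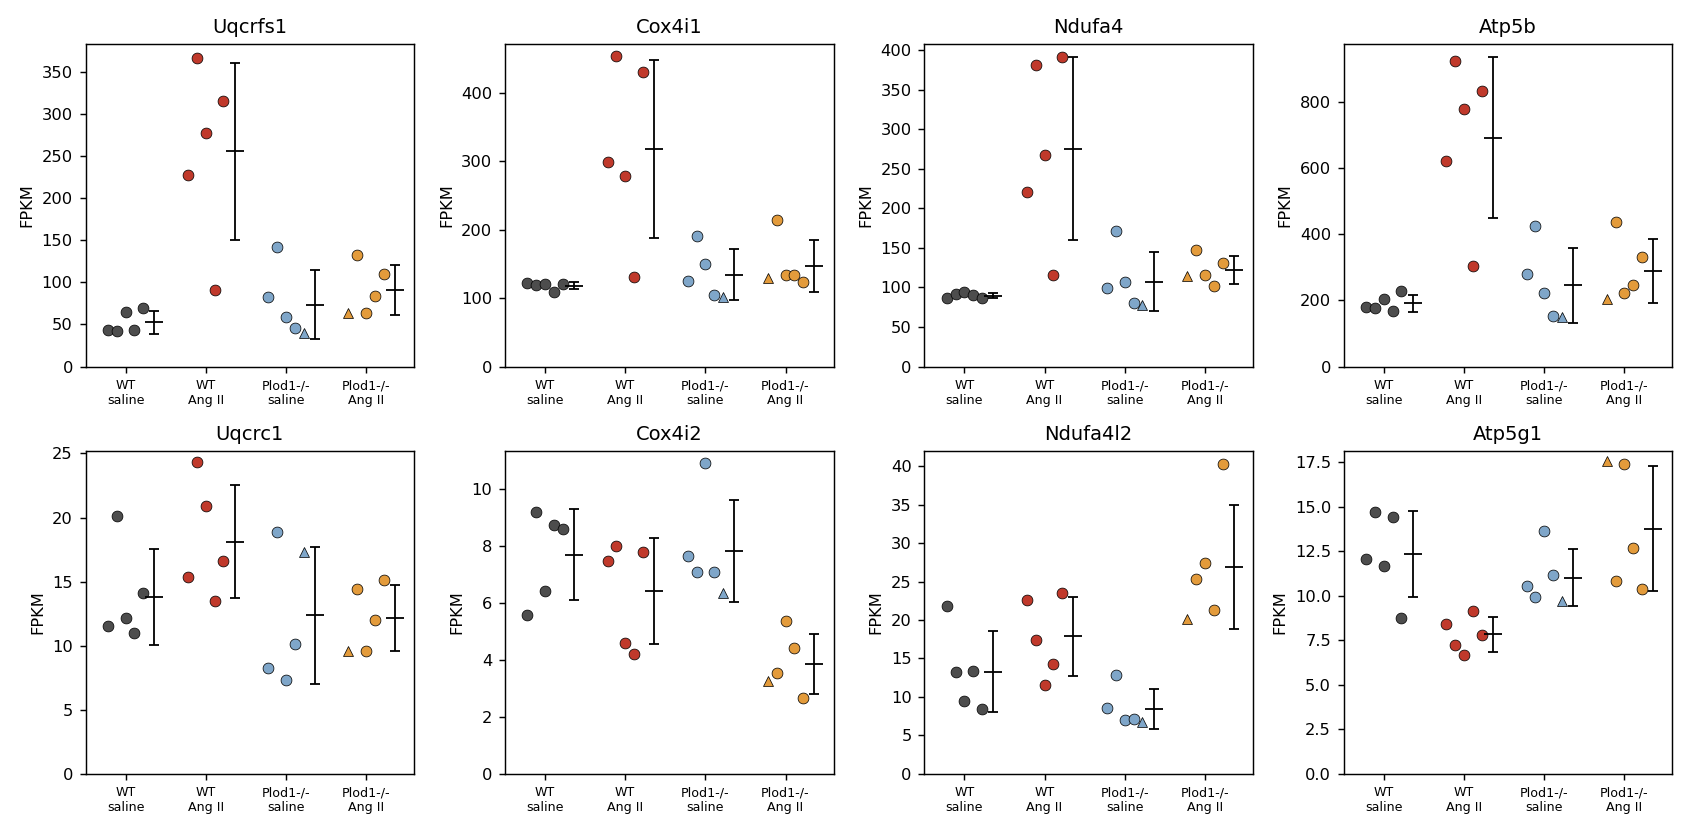
FPKM of 8 nuclear members in each mouse, with one member of complex III, of complex IV, of the Ndufa4 pair and of complex V in each row; triangles are the 2 libraries with Xist RNA and bars give mean and SD of 5 mice. In the upper row (Uqcrfs1, Cox4i1, Ndufa4, Atp5b) the WT Ang II mice reach the highest values, and in the lower row Ndufa4l2 and Cox4i2 separate the Plod1-/- groups and Atp5g1 separates the Ang II groups.

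Of the mitochondrial members, 3 were lower in Plod1-/- Ang II mice than in WT Ang II mice: mt-Nd2 by −1.46 ± 0.41, mt-Nd4l by −1.31 ± 0.33 and mt-Nd3 by −1.27 ± 0.44. All 13 had negative differences (median −1.02). This count moved most with Plod1-/- Ang II mouse 1, a library with Xist RNA. mt-Cytb was at 22018, 9267, 8809, 9786 and 9126 FPKM in this group, and mt-Nd1 at 14989, 4162, 4529.6, 5712 and 4118 FPKM, so mouse 1 lay within the range of the WT Ang II mice and the other 4 below it. Without this mouse 9 mitochondrial members were lower. Without WT Ang II mouse 4 the count was 7, and without WT Ang II mouse 3 or 5 or Plod1-/- Ang II mouse 2, 3 or 4 it was 1.

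Brown adipocyte markers, with Cox8b and Cox7a1 again on the list, went with the nuclear genes. Of 8 tested, 6 were lower in Plod1-/- Ang II mice. Ucp1 was at 36.6, 126, 66.5, 80.2 and 165 FPKM there, below all WT Ang II mice. None of 8 white adipocyte markers passed the test (limma; 1 of the 8 at an unadjusted p of 0.05, against 43.5% of all genes tested), at a median of −0.17, and 3 of 6 skeletal muscle markers were lower. All 8 macrophage markers, all 5 red cell genes tested and all 8 immediate early genes were higher. Their part in the result was not tested. All 4 complex II genes, 12 of 13 tricarboxylic acid cycle genes and 13 of 15 beta-oxidation genes were lower, whereas of 77 mitochondrial ribosomal protein genes 17 were lower and 1 was higher.

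The difference between the 2 genotypes in their response to Ang II was tested directly as an interaction. Of 84 nuclear members, 62 had a smaller response in Plod1-/- mice and 2 a larger one, against 14.1% and 23.8% of all genes tested. Of the 62, 50 differed by more than 1 on the log2 scale, against 6.36% of all genes, and the median was −1.08. By complex, 31 of 35 were lower in complex I, 7 of 8 in complex III, 10 of 14 in complex IV and 9 of 17 in complex V. The lowest values of complexes I, III, V and IV were those of Ndufv1 (−1.91 ± 0.43, limma adjusted p = 0.0028), Uqcrfs1 (−1.77 ± 0.51), Atp5b (−1.48 ± 0.43) and Cox6a1 (−1.46 ± 0.42). The 2 in the other direction were Ndufa4l2 (1.13 ± 0.35, adjusted p = 0.0164) and Atp5g1 (0.86 ± 0.22, adjusted p = 0.0059). The highest values of complexes I, III and IV were those of Ndufs3 (0.24), Uqcrc1 (−0.33) and Cox7a2l (−0.41), none of which passed. Of the 13 mitochondrial members 8 had a smaller response in Plod1-/- mice (median −1.28), and this count was between 3 and 5 without any one of 15 single mice: WT saline mice 1, 2 and 4, WT Ang II mice 1, 2, 3 and 5, Plod1-/- saline mice 1, 2, 4 and 5, and Plod1-/- Ang II mice 2, 3, 4 and 5. With quantile normalization, which gives the highest-ranked genes of every mouse the same values, the difference in response was 0 for mt-Co1 and mt-Cytb.

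Mouse by mouse, nuclear and mitochondrial members did not always move together. The ratio of the mitochondrial sum to the nuclear sum was 5.21, 4.88, 8.05, 6.04 and 8.20 in WT saline mice and 6.13, 5.21, 7.48, 6.90 and 4.68 in WT Ang II mice, which overlapped. It was 7.03, 5.08, 4.87, 7.99 and 11.1 in Plod1-/- saline mice and 13.4, 4.64, 4.98, 6.94 and 5.57 in Plod1-/- Ang II mice. The highest ratios, 11.1 and 13.4, belonged to the 2 libraries with Xist RNA, in which the mitochondrial median was 0.65 and 1.24 above WT saline on the log2 scale and the nuclear median −0.09 and 0.19. WT saline mice varied in their mitochondrial median from −0.51 to 0.48 while their nuclear median stayed between −0.02 and 0.02. Among WT Ang II mice, the nuclear median was highest in mice 2 and 5 (1.64 and 1.58) and the mitochondrial median in mice 2 and 3 (1.62 in both), and mouse 4 was lowest in both (0.26 and 0.46). Mouse 2 had both the most Ucp1 and the highest nuclear median among WT Ang II mice and among Plod1-/- saline mice. In WT saline mice, mouse 5 had the most Ucp1 and the lowest nuclear median, within the narrow range given above, but the highest nuclear sum (5991 FPKM). WT saline mice 5 and 3 had the most Ucp1 (159.9 and 79.3 FPKM) and also the highest mitochondrial sums of their group (49114 and 47529 FPKM). In Plod1-/- Ang II mice, mouse 5 had the most Ucp1 and mouse 2 the highest nuclear median.

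**Figure D5:**
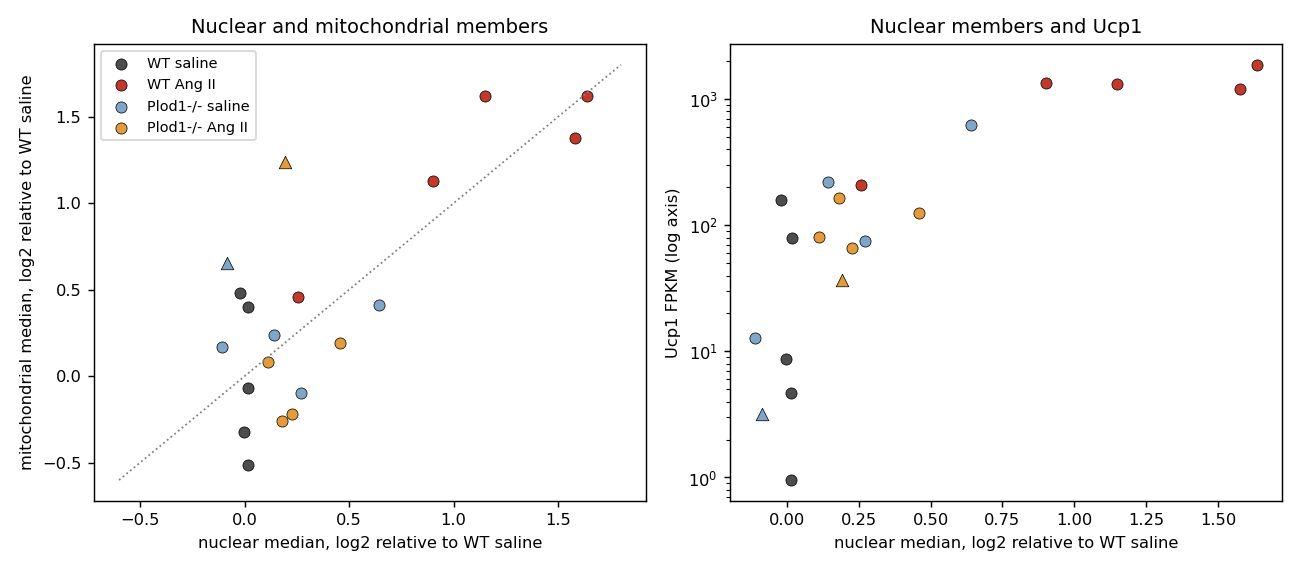
Each point is a mouse. The x axis gives the median over nuclear members of log2(FPKM + 1) minus the WT saline mean; the y axis gives the same median over mitochondrial members (left, with the line of equal values dotted) or the FPKM of Ucp1 on a log axis (right). The 2 libraries with Xist RNA, drawn as triangles, stand high on the left at nuclear medians of −0.09 and 0.19, and the 4 WT Ang II mice with Ucp1 at 1201 FPKM or more have the highest nuclear medians, 0.90 to 1.64.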

How the data were processed

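Abdominal aortas of 20 mice were analysed, 5 in each of 4 groups taken from the sample titles. The deposited values are FPKM per gene. Per the study's methods, the authors set aside reads from ribosomal RNA, mapped what remained with HISAT2, and derived FPKM with StringTie, cuffquant and cuffnorm. The submitters' processing notes name the build mm10, Bowtie2 2.2.3, HTSeq 0.6.0 and HISAT2 2.1.0, which is another HISAT2 version than in the methods. FPKM depend on annotated length and are scaled to the fragments of each library, so a rise in some genes lowers others, and counting error cannot be had from them. The FPKM of a library did not sum to one fixed total. The sums ranged from 344207 to 437790, with 353864 to 364341 in WT saline mice and 359884 to 430580 in WT Ang II mice.

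Gene symbols came from GENCODE M21, and 43285 of 43422 genes had one. The values log2(FPKM + 1) were fitted with limma 3.58.1 (R 4.3.3) for each comparison on the groups it concerns, and for the interaction on all 4 groups, over genes at 1 FPKM or more in at least 5 mice, with Benjamini-Hochberg adjustment over all genes tested. The code was tested on simulated data. Members below the filter were given exact permutation tests. Mice within a group are taken as separate animals.

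The 13 mitochondrial genes, the isoform genes, and in each nuclear complex the members with the highest and lowest log2 fold change and mean level were to be named. Members and lists were chosen with earlier results of these data known. Genes named beyond this rule (Ndufv1 in WT mice, Atp5j, Atp5a1, Ndufaf3, Ndufaf7 and the other calls in Plod1-/- mice) were chosen after their values were seen. Alternatives were a pseudocount of 0.1, no filter, a replicate block, quantile normalization, leaving out the mitochondrial genes with the remaining sums made equal, and leaving out mice.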

Additional observations from a re-analysis of the deposited data

Results flagged for a closer look

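In 88 groups of 5 values (4 groups for each of 19 genes and 3 sums or ratios), 12 held a mouse set apart from the other 4 by Dixon's test. Chance does this in about 1 of 20 single groups. The groups come from the same mice and the sums contain the genes, so they are not independent. The count therefore cannot be set against that rate. Plod1-/- Ang II mouse 1, a library with Xist RNA, was apart for the mitochondrial sum (86734 FPKM, next 43614), the ratio of mitochondrial to nuclear sum (13.4, next 6.94), mt-Cytb (22018 FPKM, next 9786) and mt-Nd1 (14989 FPKM, next 5712). Plod1-/- Ang II mouse 2 was apart for the nuclear sum (8975 FPKM, next 6738), Cox6a1 (1278 FPKM, next 833) and Cox4i1 (214 FPKM, next 134). The others were Ndufs3 in Plod1-/- saline mouse 1 (4.59 FPKM), Cox4i1 in WT saline mouse 4 (109 FPKM, the lowest), Cox4i2 in Plod1-/- saline mouse 3 (10.9 FPKM), and Cox6a2 in WT saline mouse 3 (6.94 FPKM) and Plod1-/- saline mouse 1 (13.5 FPKM).

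The response to Ang II differed between the genotypes for 14 of the same 19 genes by limma's interaction test at an adjusted p below 0.05. Of all genes tested, 23.8% had a larger response in Plod1-/- mice and 14.1% a smaller one. Ndufv1, Uqcrfs1, Cox6a1, Atp5b and Atp5g1 were named for extreme values, those of the interaction included, so the count was partly set by that choice. The log2 response was smaller in Plod1-/- mice for mt-Nd1 (−1.26), mt-Nd6 (−1.02), mt-Cytb (−1.34), mt-Co1 (−0.99), Ndufa10 (−1.83), Ndufv1 (−1.91), Uqcrfs1 (−1.77), Cox4i1 (−1.16), Cox5a (−1.46), Cox6a1 (−1.46), Ndufa4 (−1.25) and Atp5b (−1.48), and larger for Ndufa4l2 (1.13) and Atp5g1 (0.86).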

How the results depend on the processing

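The nuclear and mitochondrial medians kept their direction under every alternative, apart from those in Plod1-/- mice. The nuclear median in Plod1-/- mice, 0.05, became −0.04 with quantile normalization and −0.02 with the mitochondrial genes left out and the remaining sums made equal. Between the Ang II groups, quantile normalization moved the median of all genes tested from 0.12 to −0.03 and left the nuclear median at −0.88. The counts of nuclear calls in WT mice (73) and in the interaction (64) stayed within 1.5 times under every alternative. Other counts moved, in some cases with fewer genes or mice by construction and otherwise from causes that were not tested. Without the filter, mitochondrial calls were 4 in WT mice, 1 between the Ang II groups and 1 in the interaction, and nuclear calls were 3 in Plod1-/- mice, 23 between the Ang II groups and 0 between the saline groups. Quantile normalization gave 11 nuclear calls in Plod1-/- mice, and 5 mitochondrial calls both between the Ang II groups and in the interaction. Leaving out the mitochondrial genes and making the remaining sums equal gave 1 nuclear call between the saline groups. Leaving out the libraries with Xist RNA gave 4 nuclear calls and 1 mitochondrial call in Plod1-/- mice, 0 nuclear calls between the saline groups and 9 mitochondrial calls between the Ang II groups. Between the saline groups, 8 of 83 nuclear members had an unadjusted p below 0.05 in limma's fit as reported, against 27.1% of all genes tested. Of 70 calls of named genes, 0 reversed; 38 passed without the filter, 61 with quantile normalization, 57 with the replicate block and all with the pseudocount of 0.1, and 46 passed whichever mouse was left out.

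With each mouse left out in turn, nuclear calls ranged from 60 to 76 in WT mice, 3 to 15 in Plod1-/- mice, 0 to 1 between the saline groups, 28 to 72 between the Ang II groups and 57 to 72 in the interaction, and mitochondrial calls from 7 to 12, 0 to 2, 0 to 0, 1 to 9 and 3 to 11. The replicate numbers share only a number: same-numbered mice correlated above 0.1 in 1 or 2 of 5 pairs of each comparison (−0.33 to 0.42). With the replicate block, nuclear calls between the saline groups were 0, and mitochondrial calls were 1 between the Ang II groups and 4 in the interaction. FPKM carry no read counts and the relative depth is only an estimate, so counting error at low levels is unknown.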
